A study of Homo sapiens with 14 samples.

Results

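MHC class II presentation was followed through 10 genes of RS4;11 cells, a human B-cell precursor acute lymphoblastic leukemia line with a rearranged KMT2A gene. The genes were HLA-DRA, HLA-DPA1, HLA-DPB1, HLA-DQB1, HLA-DMA, HLA-DMB, HLA-DOA, HLA-DOB, CD74 and CIITA, and each was read through the microarray probe sets annotated with that gene alone. This gave 24 of the 22277 probe sets on the array and 10 of the 11963 genes tested. All cells were starved of hormone for 48 h in charcoal-dextran-treated serum. Dexamethasone, a synthetic glucocorticoid that activates the glucocorticoid receptor (GR), was then given at 10 nM for 8 h (5 arrays) or 24 h (5 arrays), and 4 arrays held untreated cells at 0 h. Cells left without dexamethasone for the same 8 h or 24 h were not measured, so effects of the drug and of time in culture cannot be told apart. The vehicle of the untreated cells is not given in the sources used here, all arrays are of a single cell line, and the labels do not say whether replicates came from separate cultures, so p-values measure only the spread between these arrays.

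By the stamps in the sample descriptions, the work was done in 5 runs over 4 days. Day 1 held runs 1 and 2, and each later day held 1 run, numbered 3, 4 and 5. Every group had 1 array in each of runs 1 to 4, whereas run 5 had none of untreated cells. The values are log2 expression values, so a difference of 1 is a doubling. Array medians over all probe sets lay at 6.03 to 6.05 in untreated cells, 6.03 to 6.09 at 8 h and 6.07 to 6.11 at 24 h. Those of the 24 h arrays were thus all above those of the untreated arrays. Of the glucocorticoid-induced genes listed as a check, FKBP5, TSC22D3, ZBTB16, DDIT4 and NR3C1, 5 of the 5 measured were higher at both times, with log2 fold changes at 24 h between 0.83 (NR3C1) and 4.88 (ZBTB16). All 8 measured B-lineage markers had means above 4.25, the 0.25 quantile of the probe set means. Of the 10 T and NK cell markers 4 did, and of the 11 measured monocyte and dendritic cell markers 6 did in untreated cells.

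MHC class II molecules show peptides from the endosomes and lysosomes to CD4+ T cells, and B cells are among the few cell types that make them without further stimulation. An alpha and a beta chain (DR, DP or DQ) assemble around the invariant chain CD74, which blocks the groove and directs the complex to endosomes. There HLA-DM, made of HLA-DMA and HLA-DMB, exchanges the remaining CD74 fragment for peptide, and HLA-DO, made of HLA-DOA and HLA-DOB, restrains HLA-DM. CIITA is a coactivator that does not bind DNA itself. It is recruited to the promoters of these genes by RFX, CREB and NF-Y proteins seated on the X, X2 and Y boxes.

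Promoter sequence of the members shows where short strings of letters sought for those boxes lie. RefSeq (GRCh38.p14) gave 9 promoters for 8 of the 10 genes, 2 of them for HLA-DPA1, and none was at hand for HLA-DRA and CIITA. The window taken ran from 160 to 30 bases before the start of transcription and holds 130 bases. Capitals mark the Y box core (ATTGG, or CCAAT on the other strand), letters sought for the X2 box (TGATG or CATCA) and letters sought for the X1 box (GCAAC or GTTGC). The 7 windows shown are those of the genes called at 24 h with a sequence (HLA-DPB1, HLA-DQB1, HLA-DMA, HLA-DMB and CD74) and of both HLA-DO chains, which were not called.
HLA-DPB1, chr6:33075830-33075959, plus strand: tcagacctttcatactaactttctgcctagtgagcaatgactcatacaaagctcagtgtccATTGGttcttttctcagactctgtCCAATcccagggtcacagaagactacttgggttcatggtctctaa
HLA-DQB1, chr6:32666688-32666817, minus strand: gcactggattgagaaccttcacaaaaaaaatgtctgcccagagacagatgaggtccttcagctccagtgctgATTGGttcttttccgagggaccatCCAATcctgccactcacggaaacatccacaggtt
HLA-DMA, chr6:32953128-32953257, minus strand: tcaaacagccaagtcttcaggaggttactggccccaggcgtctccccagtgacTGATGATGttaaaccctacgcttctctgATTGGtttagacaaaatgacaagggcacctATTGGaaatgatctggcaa
HLA-DMB, chr6:32941059-32941188, minus strand: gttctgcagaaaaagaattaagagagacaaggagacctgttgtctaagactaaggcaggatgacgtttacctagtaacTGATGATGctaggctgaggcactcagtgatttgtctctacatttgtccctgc
CD74, chr5:150412941-150413070, minus strand: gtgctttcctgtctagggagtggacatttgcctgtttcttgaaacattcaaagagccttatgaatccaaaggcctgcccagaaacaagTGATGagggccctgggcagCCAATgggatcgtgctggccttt
HLA-DOA, chr6:33009622-33009751, minus strand: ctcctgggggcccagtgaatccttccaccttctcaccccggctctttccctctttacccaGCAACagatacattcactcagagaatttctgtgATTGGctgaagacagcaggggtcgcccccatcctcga
HLA-DOB, chr6:32817033-32817162, minus strand: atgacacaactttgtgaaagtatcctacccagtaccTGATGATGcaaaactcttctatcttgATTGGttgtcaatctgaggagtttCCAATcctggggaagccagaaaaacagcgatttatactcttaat

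The Y box core stood in the windows of HLA-DPB1, HLA-DQB1, HLA-DMA, HLA-DOA, HLA-DOB and CD74. Of all 35116 promoter windows of the same length, 21.9% hold it on either strand. The X2 letters stood in HLA-DMA, HLA-DMB and HLA-DOB, each time as the overlapping pair TGATGATG, and singly in CD74, against 17% of all windows. The X1 letters stood in HLA-DOA and in 1 of the 2 HLA-DPA1 promoters, against 15.9%. A full glucocorticoid response element, read as AGAACA and TGTTCT with 3 free bases between them, was found in none of the 9 windows and in 1 of the 35116 (0.00285%). These letters were chosen after the sequences had been seen, and a match describes the sequence only. Only these exact letters were sought, so a window without them can still hold another form of a box. Which box a match belongs to, X1 or X2, was not tested. The Y box core stood in both HLA-DO windows and in 4 of the 5 shown of called genes, all but HLA-DMB. It stood in neither of the 2 windows of HLA-DPA1, which was also not called.

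At 8 h, no member passed the test. Of the 10 genes, 0 were called higher and 0 lower at an adjusted p below 0.05 (limma), where 19.7% of all genes tested were called, 8.69% higher and 11% lower. At an unadjusted p below 0.05 there were 2, HLA-DPB1 and HLA-DQB1, both higher. The median log2 fold change of the members was 0.05, and that of all genes was −0.02. For HLA-DRA, HLA-DPB1 and HLA-DQB1 the 8 h arrays all lay above the untreated arrays, which 7.86% of all genes also showed, and for no member did they all lie below (10.4% of all genes). Of the members' 24 probe sets, 0 were called at 8 h, where 7.75% of all single-gene probe sets were higher and 9.13% lower, and 3 were higher at an unadjusted p below 0.05.

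At 24 h, 7 of the 10 members were higher than in untreated cells, 0 were lower and 3 were not called. HLA-DRA, HLA-DPB1, HLA-DQB1, HLA-DMA, HLA-DMB, CD74 and CIITA rose, by between 1.14-fold (CIITA) and 1.46-fold (HLA-DPB1). HLA-DPA1, HLA-DOA and HLA-DOB were not called, with log2 fold changes between −0.08 and 0.004. Of all genes tested 40.5% were called, 19.5% higher and 20.9% lower. The members' median log2 fold change was 0.21, against −0.02 over all genes. Groups did not overlap for HLA-DRA, HLA-DPB1, HLA-DQB1 and HLA-DMB, which 17.2% of all genes showed in the same direction. No member lay wholly below its untreated arrays, which 18.1% of all genes did. In bulk arrays of this kind, a change in the share of cells that make a transcript and a change in transcript per cell cannot be told apart. The call of 7 fell to 4 with all arrays shifted to the same median and without run 5. The fit without run 5 was added after the data had been seen. With a variance filter like that of the methods it was also 4, since HLA-DRA, HLA-DMB and CD74 were removed before testing. That filter, here over single-gene probe sets, kept 9535 of them and with them 5 of the 10 members.

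**Figure D1:**
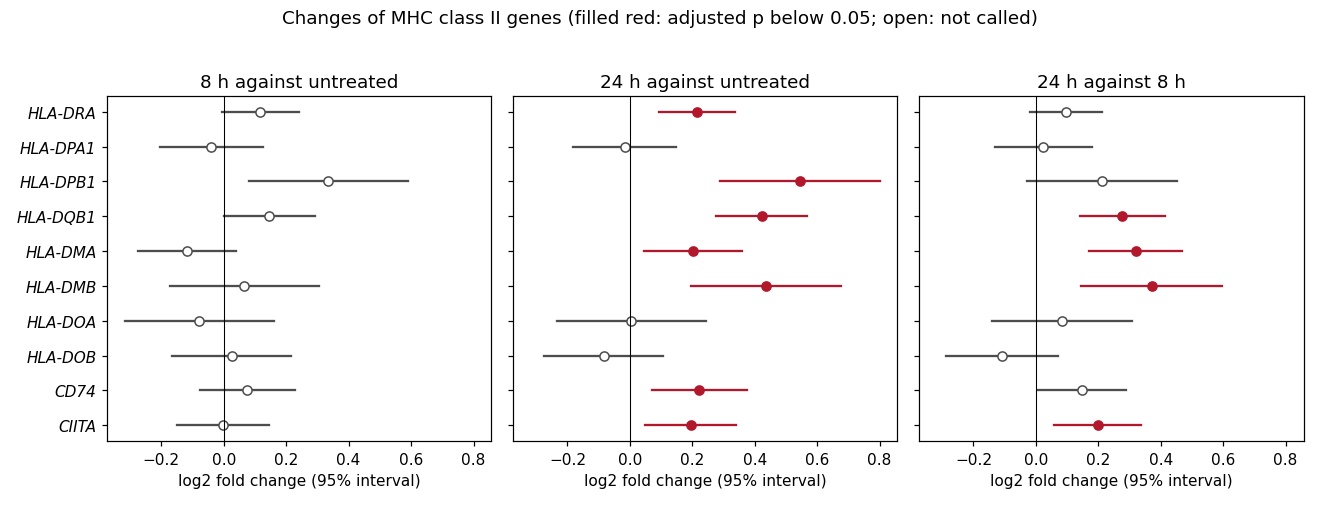
Log2 fold change of each gene (horizontal axis) with its 95% interval from limma in the 3 comparisons, over 4 arrays of untreated cells and 5 at each time. Filled red points passed an adjusted p below 0.05: none at 8 h, 7 at 24 h against untreated cells and 4 between 24 h and 8 h.

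Between 8 h and 24 h, 4 of the 10 members rose: HLA-DQB1, HLA-DMA, HLA-DMB and CIITA. None fell at an adjusted or an unadjusted p below 0.05. Of all genes 28.3% were called, 14.6% higher and 13.7% lower. The members' median log2 fold change was 0.17, and that of all genes 0.003. Groups did not overlap for HLA-DQB1, HLA-DMA and CIITA, which 11.5% of all genes showed in this direction and 10.9% in the other. With the run as a block, HLA-DPB1 (0.21, adjusted p = 0.0208) and CD74 (0.15, adjusted p = 0.0334) were called too, which makes 6, and 19% of all genes were higher in that fit. All 3 comparisons share arrays with each other, so their counts are not independent.

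**Figure D2:**
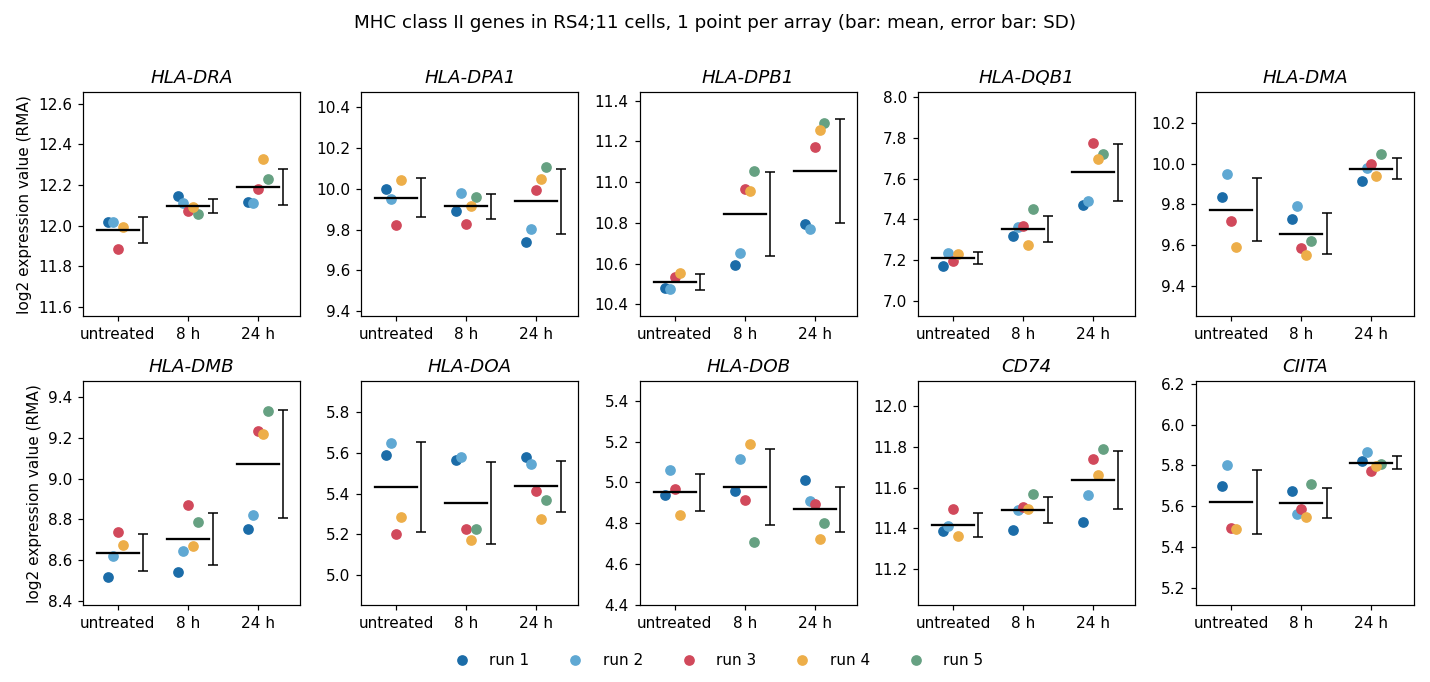
Log2 expression value of each gene on each of the 14 arrays (vertical axis, with a span of 1.1 in every panel) by group, coloured by run, with the mean and SD beside the points. The 24 h arrays of runs 3, 4 and 5 lie above those of runs 1 and 2 for HLA-DRA, HLA-DPB1, HLA-DQB1, HLA-DMB and CD74, and for HLA-DPA1, which was not called. How many of all genes show this order was not counted.

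Among the chains that hold the peptide, HLA-DPB1, the beta chain of DP, showed the largest log2 fold change at 24 h. In run order it read 10.48, 10.47, 10.54 and 10.55 before treatment, then 10.60, 10.65, 10.96, 10.96 and 11.05 after 8 h, and 10.79, 10.77, 11.17, 11.26 and 11.29 after 24 h. Every 8 h and 24 h array lay above all untreated arrays, and the 8 h arrays of runs 3 to 5 lay above the 24 h arrays of runs 1 and 2. The mean went from 10.51 ± 0.04 (SD, n = 4) to 10.85 ± 0.21 (n = 5) and 11.06 ± 0.25 (n = 5). At 24 h the log2 fold change was 0.55 (SE 0.12, 95% interval 0.29 to 0.80, limma adjusted p = 0.00144). At 8 h it was 0.33 (95% interval 0.08 to 0.59, adjusted p = 0.0642). With the run as a block the 8 h change was 0.28 and was called (adjusted p = 0.00985), where 11.9% of all genes were higher.

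HLA-DQB1, the beta chain of DQ, rose at 24 h against both earlier groups. It read 7.17, 7.23, 7.20 and 7.23 before treatment, then 7.32, 7.36, 7.36, 7.27 and 7.45 after 8 h, and 7.47, 7.49, 7.77, 7.69 and 7.72 after 24 h, in run order. The 3 groups did not overlap. The log2 fold change was 0.15 at 8 h (SE 0.07, adjusted p = 0.169), 0.42 at 24 h (SE 0.07, adjusted p = 9.13e-05) and 0.28 between 8 h and 24 h (SE 0.06, adjusted p = 0.00377).

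HLA-DRA, the alpha chain of DR, pairs with every DR beta chain. Its values were 12.02, 12.02, 11.88 and 11.99 before treatment, then 12.14, 12.11, 12.07, 12.09 and 12.06 after 8 h, and 12.12, 12.11, 12.18, 12.33 and 12.23 after 24 h. The untreated arrays lay below all others, while the 8 h and 24 h arrays overlapped. The log2 fold change was 0.12 at 8 h (adjusted p = 0.189) and 0.21 at 24 h (SE 0.06, 95% interval 0.09 to 0.34, adjusted p = 0.00635).

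HLA-DPA1, the alpha chain that pairs with HLA-DPB1, was not called at either time. It read 10.00, 9.95, 9.82 and 10.05 before treatment, then 9.89, 9.98, 9.83, 9.92 and 9.96 after 8 h, and 9.74, 9.80, 9.99, 10.05 and 10.11 after 24 h. The groups overlapped, with the 24 h arrays of day 1 lowest and those of days 3 and 4 highest. The 24 h log2 fold change was −0.02 (95% interval −0.18 to 0.15, adjusted p = 0.897).

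CD74, the invariant chain, read 11.39, 11.41, 11.50 and 11.36 before treatment, then 11.39, 11.49, 11.51, 11.50 and 11.57 after 8 h, and 11.43, 11.56, 11.74, 11.66 and 11.79 after 24 h. The run 1 array at 24 h fell within the untreated range, and the other 24 h arrays lay above it. The log2 fold change was 0.08 at 8 h (adjusted p = 0.562) and 0.22 at 24 h (SE 0.07, 95% interval 0.07 to 0.37, adjusted p = 0.0188). The 24 h call was lost with all arrays at the same median (0.18, adjusted p = 0.0658) and without run 5 (0.19, adjusted p = 0.0577).

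Both chains of HLA-DM, the peptide editor, were higher at 24 h. HLA-DMB read 8.52, 8.62, 8.73 and 8.67 before treatment, then 8.54, 8.64, 8.87, 8.67 and 8.79 after 8 h, and 8.75, 8.82, 9.23, 9.22 and 9.33 after 24 h. Its 24 h arrays lay above all untreated arrays, and its 8 h arrays overlapped both groups. The log2 fold change was 0.07 at 8 h (adjusted p = 0.782), 0.44 at 24 h (SE 0.11, adjusted p = 0.00489) and 0.37 between them (SE 0.11, adjusted p = 0.0147). The last call was lost without run 5 (0.33, adjusted p = 0.0521) and within day 1 (0.20, adjusted p = 0.101).

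HLA-DMA read 9.84, 9.95, 9.72 and 9.59 before treatment, then 9.73, 9.79, 9.59, 9.55 and 9.62 after 8 h, and 9.91, 9.98, 10.00, 9.94 and 10.05 after 24 h. Its 8 h array was below the untreated array in 4 of 4 runs, by 0.04 to 0.16, although the 8 h change was not called (−0.12, adjusted p = 0.329). All 24 h arrays lay above all 8 h arrays, and the log2 fold change between them was 0.32 (SE 0.07, adjusted p = 0.00227). Against untreated cells the 24 h groups overlapped, and the log2 fold change was 0.20 (SE 0.07, 95% interval 0.04 to 0.36, adjusted p = 0.0390). That call was lost with all arrays at the same median (0.15, adjusted p = 0.128) and without run 5 (0.18, adjusted p = 0.0994).

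Neither chain of HLA-DO, the brake on HLA-DM, was called in any of the 3 comparisons. Both chains read low, where the cutoff for dim probe sets is 4.25. HLA-DOA is the mean of 4 probe sets with means of 4.28 to 6.47, and HLA-DOB has 1 with a mean of 4.93. Signal this low limits what the absence of a call can show. HLA-DOA read 5.59, 5.65, 5.20 and 5.28 before treatment, then 5.56, 5.58, 5.23, 5.17 and 5.22 after 8 h, and 5.58, 5.55, 5.41, 5.27 and 5.37 after 24 h. In each group its day 1 arrays were the highest. Its 24 h log2 fold change was 0.004 (95% interval −0.23 to 0.24, adjusted p = 0.983). HLA-DOB read 4.94, 5.06, 4.97 and 4.84 before treatment, then 4.96, 5.11, 4.92, 5.19 and 4.71 after 8 h, and 5.01, 4.91, 4.90, 4.72 and 4.80 after 24 h. Its groups overlapped, and its 24 h log2 fold change was −0.08 (95% interval −0.28 to 0.11, adjusted p = 0.526). The intervals of HLA-DOA and HLA-DMA at 24 h overlap, and the difference between HLA-DM and HLA-DO was not tested.

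CIITA, the coactivator, read 5.70, 5.80, 5.49 and 5.49 before treatment, then 5.67, 5.56, 5.58, 5.55 and 5.71 after 8 h, and 5.82, 5.86, 5.77, 5.80 and 5.81 after 24 h. These values are means of 3 probe sets, 205101_at (mean 8.10), 210925_at (4.73) and 211884_s_at (4.23, under the 4.25 cutoff for dim probe sets). In 205101_at the 8 h arrays (up to 8.36) and the 24 h arrays (from 7.98) overlapped. At 24 h the day 1 arrays were the lowest in 205101_at and the highest in the other probe sets, so the mean joins opposite day orders. In that mean, all 24 h arrays lay above all 8 h arrays, and they overlapped the untreated arrays through run 2. The log2 fold change was −0.003 at 8 h (adjusted p = 0.988), 0.19 at 24 h (SE 0.07, 95% interval 0.05 to 0.34, adjusted p = 0.0329) and 0.20 between 8 h and 24 h (adjusted p = 0.0317). The 24 h call was lost with all arrays at the same median (0.15, adjusted p = 0.0998) and without run 5 (0.20, adjusted p = 0.0557). The call between 8 h and 24 h was lost with the brightest probe set (0.44, adjusted p = 0.0545), with all arrays at the same median (0.17, adjusted p = 0.0583), within day 1 (0.23, adjusted p = 0.0656) and without any 1 of 7 arrays, namely the 8 h replicates 2, 3 and 5 and the 24 h replicates 1, 2, 4 and 5, where it stood at 0.18 to 0.20 (adjusted p from 0.0529 to 0.0760).

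Within runs, the 24 h array was above the untreated array of its own run in 4 of 4 runs for each of the 7 genes that were called. The calls come from these same arrays, so this order is not separate support for them. The share of all genes with this order was not computed. The size differed between days. In runs 1 and 2 (day 1) HLA-DPB1 was 0.32 and 0.29 higher on the log2 scale, and in runs 3 and 4 it was 0.64 and 0.71 higher. HLA-DMB was 0.24 and 0.20 higher on day 1 and 0.50 and 0.55 higher in runs 3 and 4. For HLA-DPA1 the difference was −0.26 and −0.15 on day 1 and 0.17 and 0.002 in runs 3 and 4. For 9 of the 10 members, all but HLA-DOB, the difference was larger in both later runs than in both runs of day 1, an order that 22.7% of all genes showed.

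**Figure D3:**
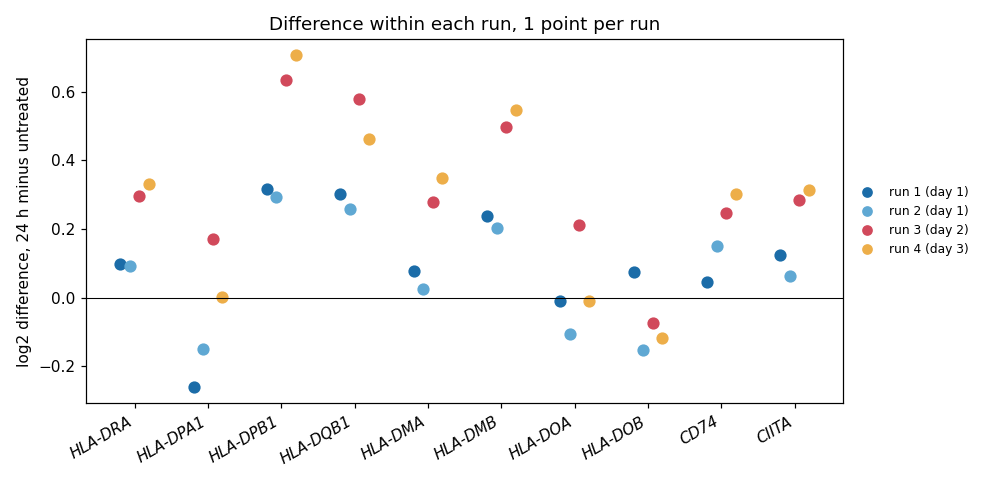
Log2 difference between the 24 h and the untreated array of the same run (vertical axis), 1 point for each of runs 1 to 4. All 4 points lie above 0 for HLA-DRA, HLA-DPB1, HLA-DQB1, HLA-DMA, HLA-DMB, CD74 and CIITA, and the day 1 points of these genes lie below those of runs 3 and 4. The calls of these genes come from the same arrays.

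Fitted within day 1 alone, with 2 arrays a group, 2 members were called at 24 h, HLA-DPB1 (0.30, adjusted p = 0.00848) and HLA-DQB1 (0.28, adjusted p = 0.0134), where 18.2% of all genes were called higher. There HLA-DMB stood at 0.22 (adjusted p = 0.0574), HLA-DRA at 0.10 (adjusted p = 0.294) and HLA-DMA at 0.05 (adjusted p = 0.643). Within days 2 to 4 the values were 0.70 for HLA-DPB1, 0.56 for HLA-DMB, 0.52 for HLA-DQB1, 0.34 for HLA-DMA, 0.31 for HLA-DRA, 0.31 for CIITA and 0.30 for CD74, and all 7 were called, where 19.8% of all genes were higher. Here HLA-DPB1 was also called at 8 h (0.45, adjusted p = 0.00100, with 9.78% of all genes higher), against 0.15 on day 1 (adjusted p = 0.166). Whether the change differs between days was not tested.

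Probe sets of a gene did not always move alike. At 24 h, 12 of the 24 probe sets were higher, 1 was lower and 11 were not called, where 18.5% of all single-gene probe sets were higher and 18.6% lower. Between 8 h and 24 h 8 were higher and 0 lower, against 13.3% and 11.7%. Both HLA-DRA probe sets rose. Of 7 HLA-DQB1 probe sets, 6 rose by 0.44 to 0.56, and the last (210747_at) had a mean of 3.32, under the 0.25 quantile of the array (4.25), and a change of 0.001. Of these 7, 5 carry the suffix _x_at, which marks probes that can also bind other transcripts, and HLA genes resemble each other and differ between people in sequence.

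The probe set called lower was 213537_at of HLA-DPA1, with a log2 fold change of −0.34 (95% interval −0.61 to −0.07, adjusted p = 0.0477). It read 7.64, 7.36, 7.51 and 7.91 before treatment, then 6.98, 6.98, 7.34, 7.49 and 7.56 after 24 h, in run order. The groups overlapped, and the 24 h arrays of day 1 were the lowest. This call was lost in 11 of the 14 fits that left out a single array, holding without untreated replicate 2 or the 24 h replicates 4 or 5, and in the fit within days 2 to 4. The other HLA-DPA1 probe sets, 211990_at (0.14, adjusted p = 0.184) and 211991_s_at (0.15, adjusted p = 0.205), were not called, so the mean of the gene joins values of both signs. For CIITA, 205101_at read 7.97, 8.09, 7.99 and 7.66 before treatment, then 7.98, 8.16, 8.53, 8.58 and 8.69 after 24 h. Its log2 fold change was 0.46 (adjusted p = 0.0476), while 210925_at (0.17, adjusted p = 0.299) and 211884_s_at (−0.05, adjusted p = 0.796) were not called. The single HLA-DMA probe set missed the threshold when adjusted over probe sets (0.20, adjusted p = 0.0510).

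**Figure D4:**
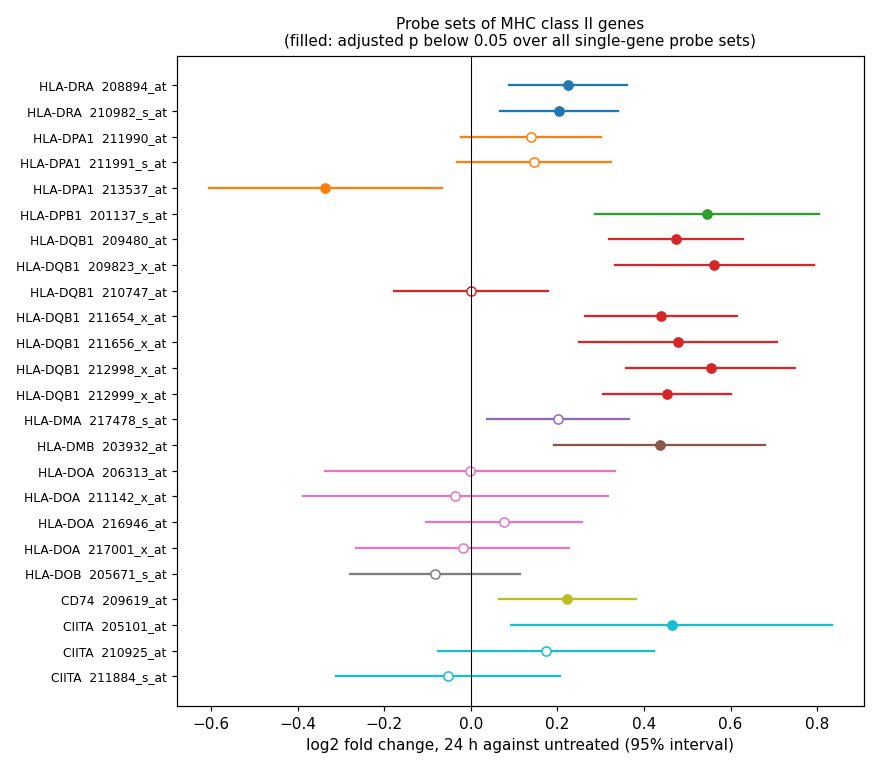
Log2 fold change of each of the 24 probe sets at 24 h against untreated cells (horizontal axis) with its 95% interval, coloured by gene. Of the 13 filled points (adjusted p below 0.05), 12 lie above 0 and 1, an HLA-DPA1 probe set at −0.34, lies below.

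The members did not form a single block across the arrays. Correlations between pairs of members, computed on deviations from the group means over 14 arrays, had a median of 0.18 over 45 pairs, with 14 above 0.5 and 19 below 0. HLA-DMB with CD74 (r = 0.89), HLA-DMB with HLA-DPB1 (0.89) and HLA-DMB with HLA-DQB1 (0.86) were among the closest, and HLA-DMB with HLA-DOA was −0.65. These points share runs, and the differences between days enter them. Over the 14 arrays the mean of the members was matched most closely by IL13RA1 (r = 0.94), FCMR (0.94), PTPRN2 (0.94), GPR153 (0.93) and ATG13 (0.93), and most inversely by ZNF248 (−0.95), PEX3 (−0.95), LRRC14 (−0.95), BCCIP (−0.94) and BCKDHB (−0.94). IL13RA1, a receptor chain for interleukin 13, and FCMR, a receptor for IgM, rose at 24 h by 1.23 and 1.12 on the log2 scale. The likeness is a description over arrays that share the 3 groups.

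The other class II chains were read less cleanly, since many of their probe sets are annotated with several genes. Of 4 with a probe set of their own (HLA-DRB1, HLA-DRB4, HLA-DQA1 and HLA-DQB2), 0 were called in any comparison with limma. Among all genes, 40.5% were called at 24 h against untreated cells, 19.7% at 8 h and 28.3% between the times. At an unadjusted p below 0.05 only HLA-DQA1 passed, between 8 h and 24 h. At 24 h the log2 fold change of HLA-DRB1 came to 0.11, with an adjusted p of 0.388. Its values split by day as those of HLA-DPA1 did, at 11.22 and 11.23 on day 1 and 11.59, 11.59 and 11.62 in runs 3 to 5, against 11.35, 11.43, 11.23 and 11.36 in untreated cells. HLA-DQA1, the partner of HLA-DQB1, stood at 0.18 (SE 0.09, adjusted p = 0.138) as the mean of 2 probe sets. In a fit that included probe sets with several genes, 213831_at of HLA-DQA1 was higher by 0.32 (adjusted p = 0.0447) and 203290_at, with a mean of 4.82 in untreated cells, by 0.04 (adjusted p = 0.767).

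Genes that act on the class II promoters moved in both directions. Of the 11 listed DNA-binding subunits and cofactors, 4 were higher and 5 lower at 24 h, against 19.5% and 20.9% of all genes. The list had a median log2 fold change of 0.04. The 4 were histone acetyltransferases and a DNA-binding factor: KAT2B (1.24, adjusted p = 6.32e-09), EP300 (0.68, adjusted p = 5.34e-05), CREBBP (0.40) and CREB1 (0.17). The 5 were NFYB (−0.72, adjusted p = 3.32e-07) and NFYC (−0.25) of NF-Y, RFXAP (−0.52, adjusted p = 4.09e-05) and RFX5 (−0.20) of RFX, and the arginine methyltransferase CARM1 (−0.49). RFXANK and NFYA were not called. At 8 h, 1 was higher (KAT2B, 0.56) and 2 were lower (RFXAP, −0.25, and CARM1, −0.71). Among all genes, 8.69% were higher and 11% lower at that time.

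Of 11 measured regulators of CIITA, 5 were higher and 1 lower at 24 h, against 19.5% and 20.9% of all genes. The median of the list was 0.17. IFNGR1, a chain of the interferon gamma receptor, rose by 1.53 on the log2 scale (adjusted p = 4.04e-06), and the kinases JAK1 by 0.84 (adjusted p = 2.21e-08) and JAK2 by 0.49. SOCS1, an inhibitor of JAK signaling, rose by 1.45 (adjusted p = 3.20e-09), and PRDM1, a repressor of CIITA in plasma cells, by 0.39. MYC fell by 0.96 on the log2 scale (adjusted p = 2.40e-07). IRF4, IRF8, IRF1, SPI1 and IFNGR2 were not called at 24 h.

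In the endosomal and lysosomal steps, 4 of 10 measured genes were higher and 1 lower at 24 h, with a median of 0.18. The 4 were the cystatin CST3 (1.87, adjusted p = 1.41e-09), which inhibits cathepsins, the proteases CTSB (1.81, adjusted p = 9.03e-10) and CTSD (1.30, adjusted p = 5.99e-07), and the membrane protein LAMP1 (0.42). CTSC, a dipeptidyl peptidase, was lower (−0.94, adjusted p = 3.75e-09). CTSS, the protease that trims CD74 in B cells, was not called, with 7.92 ± 0.09 (SD, n = 4) in untreated cells and 7.90 ± 0.04 (n = 5) at 24 h (adjusted p = 0.903). Of 7 genes of class II turnover and membrane organization, 3 were higher at 24 h, MARCHF8 (0.82, adjusted p = 3.15e-05), a ubiquitin ligase that lowers class II at the surface, and the tetraspanins CD63 (0.73, adjusted p = 1.67e-07) and CD9 (0.25, adjusted p = 0.0137). CD83, which opposes that ubiquitination, was lower (−0.84, adjusted p = 5.47e-06). Beside both lists, 19.5% of all genes were higher and 20.9% lower at 24 h.

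The class I pathway served as the nearest comparison. At 24 h, 4 of its 17 measured genes were higher and 3 lower, against 19.5% and 20.9% of all genes. The median of the list was 0.02. TAP1, a chain of the peptide transporter, rose by 0.92 (adjusted p = 3.55e-07) and its partner TAP2 fell by 0.26 (adjusted p = 0.00388). HLA-F (0.71), ERAP2 (0.66) and HLA-E (0.32) were higher, and the immunoproteasome subunits PSMB9 (−0.59) and PSMB10 (−0.28) lower. HLA-B, HLA-C and B2M were not called. Whether the class II and class I genes differ in their change was not tested. Of 10 costimulatory and adhesion genes, 3 were higher, CD58 (1.08), CD72 (0.60) and ICAM1 (0.48), and 3 lower, CD48 (−0.89), CD70 (−0.37) and LGALS9 (−0.35). CD80, CD86 and CD40 were not called, and the shares of all genes given above apply to this list too.

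**Figure D5:**
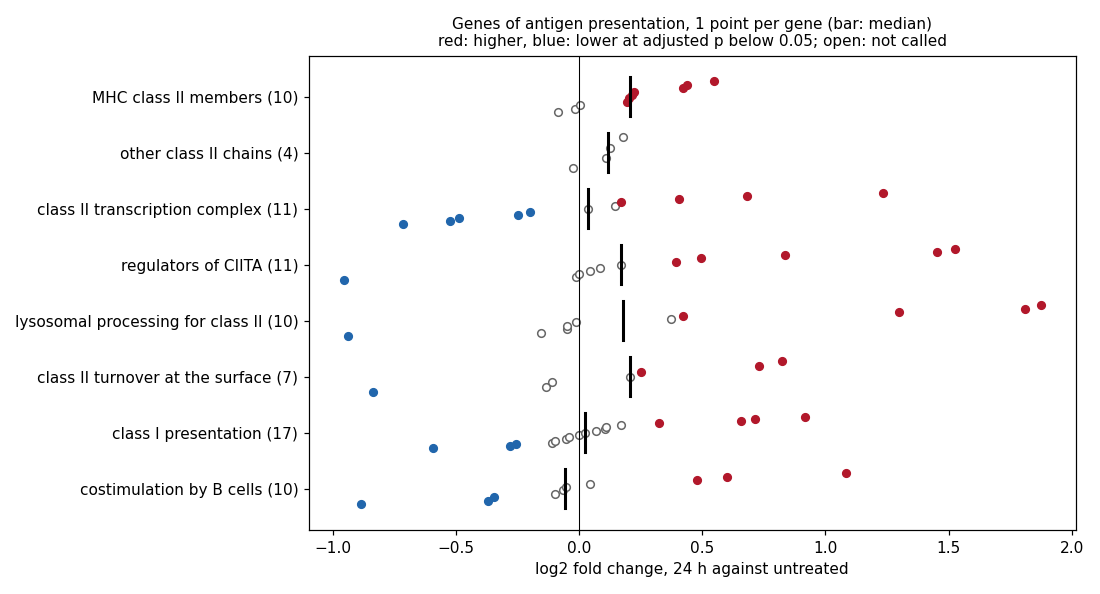
Log2 fold change at 24 h against untreated cells (horizontal axis) of each gene in 8 lists of antigen presentation, with the number measured in parentheses and a bar at the median. The members lie between −0.08 and 0.55 with a median of 0.21, a narrower span than that of the transcription, lysosomal and class I lists. The other class II chains span less, from −0.02 to 0.18.

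B-lineage markers moved in both directions at 24 h, with a median log2 fold change of 0.10. At 8 h 0 of the 8 were higher and 3 lower. Summed over 8 markers on the linear scale and expressed as log2, they lay at 13.45 to 13.65 in untreated cells, 13.44 to 13.52 at 8 h and 13.79 to 13.90 at 24 h. CD79A (0.56, adjusted p = 0.000264) and CD79B (0.98, adjusted p = 3.27e-07), the signaling chains of the B-cell receptor, were among 4 that rose at 24 h, and BLNK (−2.21) and DNTT (−1.80) among 3 that fell. The summed level of 11 monocyte and dendritic cell markers was 7.87 to 8.05, 7.85 to 7.96 and 7.87 to 8.11, and that of 10 T and NK cell markers 9.04 to 9.24, 8.86 to 9.03 and 9.12 to 9.35. The median of the T and NK cell markers on each array was only 3.97 to 4.21, 3.90 to 4.18 and 3.89 to 4.12. Their sum is thus carried mostly by the brighter genes of the list. Of these 11, 3 were called higher and 1 lower at 24 h against untreated cells, 0 at 8 h and 1 higher between the times. Of those 10, 0 were called at 24 h or 8 h against untreated cells and 1 was higher between the times. Among all genes, 19.5% were higher and 20.9% lower at 24 h against untreated cells, and 8.69% and 11% at 8 h. Between the times 14.6% were higher and 13.7% lower. Means above the 0.25 quantile were seen for 5 of the 11 at each time after treatment, against 6 before it, and for 4 of the 10 in every group. The part of these markers in the change of the members was not tested.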

How the data were processed

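Total RNA of RS4;11 cells was hybridized to 14 arrays. Per the labels and the study's methods, the authors processed the arrays with the affy tool and the RMA method (versions not given), left out 1 untreated array after quality control, and the deposited table gives log2 expression for 22277 probe sets. The methods name Agilent arrays of type hgu133a2, while the labels name an Affymetrix protocol and the probe sets carry Affymetrix names. Array signals have no molecule count behind them, so the number of arrays and their spread limit the precision.

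Members and lists were chosen with earlier results of these data known. Probe sets annotated with 1 gene (19070, with 1043 of several genes and 2164 of none left out) were averaged per gene, without a variance filter like that of the methods so that every member was tested. A limma model (3.58.1, R 4.3.3; lmFit and eBayes) was fitted to all 14 arrays together for the 3 comparisons, with Benjamini-Hochberg adjustment over 11963 genes, and genes were called at an adjusted p below 0.05. The calculation was tested on simulated data with independent arrays, so that test does not cover the likeness of arrays within a run or day. RMA makes the arrays' distributions alike, so a change shared by most transcripts would not be seen.

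Runs and days come from the sample descriptions. Across genes, deviations from the group means of arrays sharing a run had r of 0.299 to 0.537 in 13 of 13 pairs (0.218 to 0.537 for the same replicate number in the titles). Arrays of other runs on the same day had r of 0.297 to 0.473 (6 pairs) and arrays of other days −0.469 to 0.365 (46 pairs), so run and day could not be separated on day 1. The main fit held no term for run or day, so its p-values ignore this pairing. In an alternative fit the run was taken as pairing the samples, and that value stands beside a member where it changes the call.

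Apart from the members, the text names from each list up to 4 genes with the smallest adjusted p at 24 h and up to 2 at 8 h, the check genes, and the 5 genes in no list most like and most unlike the mean of the members. CREBBP, CREB1, NFYC, RFX5, RFXANK, NFYA, JAK2, PRDM1, IRF1, IRF4, IRF8, SPI1, IFNGR2, LAMP1, CTSS, TAP2, PSMB10, HLA-B, HLA-C, HLA-E, B2M, LGALS9, CD40, CD80 and CD86 fall outside this rule and were chosen for naming with their values in view. List genes with no single-gene probe set in the tables used were not analysed here. The alternatives were a variance filter (above the 0.5 quantile of the interquartile range over single-gene probe sets, which is not the same set as in the methods), a filter on dim probe sets, the brightest probe set per gene, probe sets of several genes, cyclic loess, a shift to the same median, run, title number or day as a block, array weights, run as a random block, eBayes with trend and robust settings, the 2 groups compared alone, day 1 or days 2 to 4 alone, a threshold of 0.01, and each array left out. Leaving out run 5 was added after the data had been seen.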

Additional observations from a re-analysis of the deposited data

Results flagged for a closer look

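Among 30 groups of member values (10 genes in 3 groups), no array stood apart from its group by Dixon's test. A signal outside the single-gene probe sets was seen at 212671_s_at, annotated with both HLA-DQA2 and HLA-DQA1, which was 0.34 higher at 24 h on the log2 scale than in untreated cells (limma adjusted p = 0.0462). It read 8.68, 8.69, 8.15 and 8.22 before treatment, then 8.67, 8.64, 8.77, 8.84 and 8.92 after 24 h, in run order, so that the day 1 arrays of both groups lie within 0.1 of each other. Which gene the signal comes from cannot be told from this probe set.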

How the results depend on the processing

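Under 31 alternatives, HLA-DPB1 and HLA-DQB1 were called higher at 24 h in 31 of 31. HLA-DRA and HLA-DMB were called in 29 of 30 each, the exception being day 1 alone, CD74 in 23 of 30, HLA-DMA in 20 of 31 and CIITA in 19 of 31. Without a single array the 24 h call was lost 6 times for HLA-DMA (untreated replicates 3 and 4, and 24 h replicates 2 to 5), 6 times for CIITA (untreated replicates 3 and 4, and 24 h replicates 1, 2, 4 and 5) and 3 times for CD74 (untreated replicate 4, and 24 h replicates 3 and 4). Between 8 h and 24 h CIITA was called in 20 of 31. The 7 members higher at 24 h became 4 with the shift to the same median, the threshold of 0.01 or without run 5. Within day 1 there were 2. The count was also 4 with the variance filter, which removed HLA-DRA, HLA-DMB and CD74 before testing. Leaving out each array gave 4 to 7, with 4 without untreated replicate 4 or the 24 h replicate 4. At 8 h, where none was called, HLA-DPB1 became the 1 member called with the variance filter, with run, title number or day as a replicate block, with run as a random block, with array weights, with only the 2 groups compared and within days 2 to 4, and leaving out single arrays gave 0 to 1. The 4 members higher between 8 h and 24 h became 0 within day 1 and 2 at the threshold of 0.01, 6 with the run block and 5 with the title number block, and 3 to 4 without single arrays.

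Of probe sets, 12 were higher at 24 h, with 6 within day 1, 8 at 0.01 and 9 to 13 without single arrays. That count became 14 with a run, title number or day block and 15 within days 2 to 4. Between 8 h and 24 h 8 were higher, with 1 within day 1, 13 within days 2 to 4 and 4 at 0.01. A run, title number or day block gave 11 there. At 8 h 0 became 1 with a run, title number or day block and 2 with run as a random block, array weights, only the 2 groups compared or days 2 to 4, and 0 to 1 without single arrays. The 1 lower HLA-DPA1 probe set at 24 h became 0 with array weights, only the 2 groups compared, days 2 to 4 and 0.01. That count was also 0 in 11 of 14 fits without a single array, and the variance filter removed the probe set before testing. Within day 1, 1 probe set was lower at 8 h and 1 between 8 h and 24 h. The cause of these shifts was not tested. Of 915 member values, 68 changed their call and none that was called changed sign. The run block changed the call of no member other than HLA-DPB1 and CD74. Of all genes, 1039 higher and 1312 lower at 8 h became 662 and 858 at 0.01. The shifts of all genes' median under other scalings stayed under 0.1.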
